A study of Mus musculus with 15 samples.

Results

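The 7 genes described here, *Gabra2*, *Gabra3*, *Gabra5*, *Gabrb1*, *Gabrb2*, *Gabrg1* and *Gabrg3*, encode subunits of the GABA-A receptor. They were chosen by gene symbol, and each was found under 1 Ensembl identifier among the 38561 identifiers in the count files, which hold 19 GABA-A subunit genes in all. The RNA came from Purkinje cells (PCs), the output neurons of the cerebellar cortex, cut from brain sections of male mice of the strain labelled C56/BL6 by laser capture microdissection. No treatment is named in the labels, and there were 3 samples at each of postnatal days 0, 4, 8, 14 and 21 (P0, P4, P8, P14 and P21) and 15 samples in all. From P4 on, PC soma were captured singly, whereas at P0 clusters of PCs were taken, so that capture method and the P0 age cannot be told apart. The replicates are given as biological by the study's methods.

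GABA-A receptors are chloride channels opened by GABA, the main inhibitory transmitter of the brain, and each is a ring of subunits, most often alpha and beta subunits with a gamma or delta subunit. The alpha subunit sets much of the speed of the current and its response to benzodiazepines, the gamma subunit helps to hold the receptor at the synapse, and the beta subunit binds GABA together with alpha and is needed to reach the cell surface. In many brain regions, alpha subunits common around birth (encoded by *Gabra2*, *Gabra3* and *Gabra5*) become less common as neurons mature, a change that accompanies faster inhibitory currents. In the mature PC, GABA-A receptors serve the inhibitory synapses of basket and stellate cells.

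Total counts on genes ranged from 3409371 to 7814951 per sample with a median of 5345170, and where no read of a gene was counted, its level could still be as high as 3 counts allow, which is 0.388 to 1 CPM by sample (CPM being counts on a scale of equal library totals, scaled by TMM) and covers counting error only. The summed level of 6 PC markers, all of which had counts at every time point, rose from 5340 ± 737 CPM (SD, n = 3) at P0 to 42941 ± 5287 at P21. The summed level of 8 Bergmann glia and astrocyte markers, none of which was at 0 at any time point, was 4608 ± 864 CPM at P0, 9102 ± 820 at P8 and 3651 ± 702 at P21. The 5 markers of molecular layer interneurons and Golgi cells summed to between 46.2 and 203 CPM, the 5 of granule neurons to between 233 and 652, and the 6 of the oligodendrocyte lineage to between 25.3 and 572 (means of 3 samples). Reads that the counting assigned to no gene made up 25.3% to 31.0% of a sample's counts at P0 and 18.2% to 24.7% from P4 on. These samples are pools of captured cells, in which fewer cells of a type and less RNA per cell cannot be told apart.

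The sequences before the start sites of 3 of the 7 genes are shown because these genes span the outcomes reported here. *Gabra5* and *Gabra3* are the 2 genes that fell, and *Gabrb2* had the highest level of the 7 at P21. Each is the run of 250 bases before a RefSeq start site on the gene's own strand (GRCm38.p6), at chr7:57510060-57510309 (minus strand) for *Gabra5*, chrX:72656808-72657057 (minus strand) for *Gabra3* and chr11:42420190-42420439 (plus strand) for *Gabrb2*. Capitals mark the letters TATAAA on either strand, the core of the TATA box, so that TTTATA is a match on the opposite strand.
Gabra5: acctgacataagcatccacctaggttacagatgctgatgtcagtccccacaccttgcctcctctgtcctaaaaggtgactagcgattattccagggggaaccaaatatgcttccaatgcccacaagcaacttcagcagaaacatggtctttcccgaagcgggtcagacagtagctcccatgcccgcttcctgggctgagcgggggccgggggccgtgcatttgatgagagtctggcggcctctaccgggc
Gabra3: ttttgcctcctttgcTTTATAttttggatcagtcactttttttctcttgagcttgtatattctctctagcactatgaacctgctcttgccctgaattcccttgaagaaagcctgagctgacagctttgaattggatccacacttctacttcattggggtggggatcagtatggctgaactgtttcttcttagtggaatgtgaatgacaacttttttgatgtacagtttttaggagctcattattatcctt
Gabrb2: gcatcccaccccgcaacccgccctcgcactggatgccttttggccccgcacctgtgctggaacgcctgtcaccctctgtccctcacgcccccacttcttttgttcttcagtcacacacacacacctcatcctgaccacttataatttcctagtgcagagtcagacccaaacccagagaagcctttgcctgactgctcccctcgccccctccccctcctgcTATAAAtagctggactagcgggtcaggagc
The *Gabrb2* match lay 30 bases before the start and the *Gabra3* match 235 bases before it. These runs are 1 of several for both genes. *Gabrb2* has 3 RefSeq start sites, and the runs before the other 2 held no TATAAA (54% and 36.8% G and C). *Gabra3* has 2, and the same match lies 123 bases before the other. The *Gabra5* run held none of the 3 motifs searched on both strands, which were TATAAA, the E-box CACGTG and AGGTCA, the half-site bound by nuclear receptors such as RORA. Of 32851 mouse promoter windows of the same length, 12.4% held TATAAA, 6.02% held CACGTG and 14% held AGGTCA. The share of G and C was 56.4% for *Gabra5*, 39.2% for *Gabra3* and 58.8% for *Gabrb2*, against a median of 52.4% and quartiles of 45.2% and 61.2% over all windows. The *Gabra3* run had 0 CG dinucleotides, the *Gabra5* run 9 and the *Gabrb2* run 8.

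*Gabra5* and *Gabra3* fell with postnatal day, and none of the 7 genes rose past the threshold. The test was edgeR's quasi-likelihood F test of day as a number over 14293 genes with Benjamini-Hochberg adjustment, and the slope is the change in log2 CPM per day. All 7 genes passed the filter on low counts. Of all genes tested, 14.1% fell and 12.1% rose with day, so 2 of 7 falling and 0 of 7 rising stand beside those shares. The count of 0 rising genes was also that of DESeq2, whereas limma-voom called *Gabrb1* (adjusted p = 0.019). Limma-voom did not call *Gabra3* (adjusted p = 0.0659), so that 1 of the 7, *Gabra5*, fell there, while DESeq2 called both. Of all genes tested, 1993 of 15349 rose and 2442 fell in DESeq2, and 2238 of 14293 rose and 1807 fell in limma-voom. At an unadjusted p under 0.05, *Gabrb1* was the 1 gene of the 7 with a positive slope in edgeR. Of all 14293 genes, 5257 were under this p in either direction. The median slope of the 7 genes was 0.03 against -0.01 over all genes tested. With the time points entered as a factor, edgeR found a difference of any pattern for 1 of the 7, *Gabra5*, where 19.3% of all genes tested were called. In this test DESeq2 called 3 of the 7, *Gabra5*, *Gabra2* (adjusted p = 0.0238) and *Gabra3* (adjusted p = 0.0305), beside 4224 of all 14228 genes it tested. Limma-voom called 2, *Gabra5* and *Gabrg1* (adjusted p = 0.041), beside 3292 of all 14293.

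**Figure D1:**
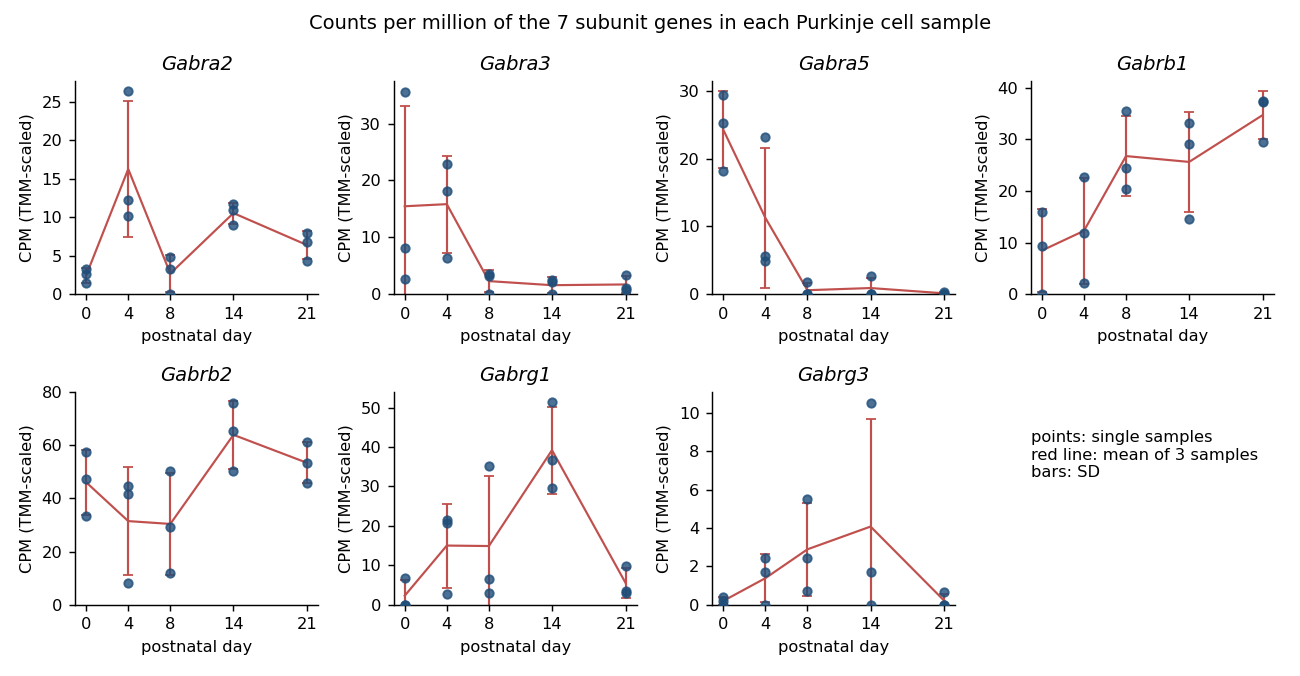
CPM (scaled by TMM library sizes, vertical axes from 0) of the 7 genes against postnatal day, with single samples as points, and the mean of 3 samples with its SD as the red line and bars. *Gabra5* reached 18.2 to 29.4 CPM at P0 and at most 2.68 from P8 on, while *Gabrb1* had its highest mean, 34.7 CPM, at P21.

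*Gabra5* encodes the α5 subunit, best known from receptors outside synapses that carry a sustained inhibitory current in the hippocampus. The gene (ENSMUSG00000055078) lies on the minus strand of chromosome 7 from 57407672 to 57510059 (GENCODE M21, GRCm38). Its 3 P0 samples had 29.4, 25.2 and 18.2 CPM and its P4 samples 4.91, 23.2 and 5.65 CPM. At P8 they had 0, 1.72 and 0 CPM, at P14 0, 2.68 and 0 CPM, and at P21 0.334, 0 and 0 CPM. Every sample from P8 on thus lay below every P0 and P4 sample, while P4 replicate 2 overlapped the P0 samples. In counts, the P0 samples together held 370 counts of the gene and the P21 samples 1. This is a ratio of 435 per total count (exact 95% interval 77.6 to 17229, counting error only).

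The slope of *Gabra5* was -0.37 ± 0.08 (SE) per day (edgeR, adjusted p = 0.00198). It stayed past the threshold when P0 was left out (slope -0.36, adjusted p = 0.0383) and when any sample was left out (adjusted p at most 0.0061). The test of any difference between time points gave an adjusted p of 0.0217 (edgeR), and P21 against P0 a log2 fold change of -7.83 ± 2.15 (edgeR, adjusted p = 0.0143). Of all genes tested, 10.6% were lower and 12.2% higher at P21 than at P0, and *Gabra5* was the 1 of the 7 genes called there. Both calls were lost without P21 replicate 2 (edgeR adjusted p = 0.0525 for any difference and 0.0612 for P21 against P0, log2 fold change -7.31) and without P21 replicate 3 (0.0518 and 0.0599, log2 fold change -7.18). Of the summed exon length of *Gabra5*, 4.98% is shared with Gm9962 on the opposite strand, and the library kit does not mark strand.

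*Gabra3* encodes the α3 subunit, known from the developing brain and from monoaminergic nuclei. The gene (ENSMUSG00000031343) lies on the minus strand of the X chromosome from 72432681 to 72656848. Its level was 35.6, 8.13 and 2.63 CPM in the P0 samples and 6.38, 22.9 and 18.2 CPM in the P4 samples. It was 3.23, 3.62 and 0 CPM at P8, 2.21, 2.49 and 0 CPM at P14, and 0.668, 1.06 and 3.36 CPM at P21. The P0 samples spread widest, and P0 replicate 3 lay within the range of the later time points. Over the P0 samples together there were 239 counts against 28 over the P21 samples, a ratio of 10 per total count (exact 95% interval 6.77 to 15.4, counting error only).

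The slope of *Gabra3* was -0.17 ± 0.06 per day (edgeR, adjusted p = 0.0366), close to the threshold. The call was lost without P0 (slope -0.18, edgeR adjusted p = 0.101), without P0 replicate 1 (slope -0.15, adjusted p = 0.118), and without any of 6 other samples, namely P4 replicates 2 and 3 and replicates 1 and 2 of P14 and P21 (adjusted p between 0.0513 and 0.0769). It was also lost with limma-voom (adjusted p = 0.0659), with log2(day + 1) in place of day (edgeR, adjusted p = 0.0572) and with the replicate block (edgeR, adjusted p = 0.0676). The slope kept its sign in all of these fits. Between P21 and P0 the log2 fold change was -3.14 ± 1.48 (edgeR, adjusted p = 0.143; DESeq2, adjusted p = 0.047).

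*Gabra2* encodes the α2 subunit, which in many neurons sits at synapses on the axon initial segment and is common in the newborn brain. The gene (ENSMUSG00000000560) lies on the minus strand of chromosome 5 from 70957597 to 71095849. Its samples had 3.27, 1.39 and 2.63 CPM at P0 and 10.1, 12.3 and 26.4 CPM at P4. They had 0, 4.77 and 3.26 CPM at P8, then 10.9, 11.7 and 9.02 CPM at P14, and 4.34, 6.78 and 8.01 CPM at P21. The P4 samples lay above all P0 and P8 samples, and the P14 samples again above all P8 and P21 samples. Its slope was 0.01 ± 0.06 per day (edgeR, adjusted p = 0.951), and turned negative without any 1 of the P0 samples. P4 exceeded P0 by 2.73 ± 1.10 log2 units (edgeR, unadjusted p = 0.0246, adjusted p = 0.248), which DESeq2 called (adjusted p = 0.0388). The summed level of the molecular layer interneuron and Golgi cell markers was also highest at P4, 203 ± 31.0 CPM against 63.4 ± 22.3 at P0 and 105 ± 15.6 at P8, with 1 of the 5 markers at 0 at P4. Between P8 and P14, the mean of *Gabra2* went from 2.67 to 10.5 CPM and this marker sum from 105 to 90.9 CPM. By P21 they were 6.37 and 46.2 CPM. Highest means fell on P4 for 3 of the 5 markers and on P14 for 2. The part of this sum in the *Gabra2* values was not tested.

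The pair of beta subunit genes did not pass the trend test. *Gabrb1* encodes the β1 subunit and lies on the plus strand of chromosome 5 from 71658113 to 72149037 (ENSMUSG00000029212). Its level was 9.42, 15.9 and 0 CPM at P0 and 22.8, 2.20 and 11.8 CPM at P4. It was 35.5, 24.4 and 20.4 CPM at P8, then 33.1, 14.6 and 29.2 CPM at P14, and 29.4, 37.3 and 37.5 CPM at P21. All 3 P21 samples lay above all 3 P0 samples. The slope was 0.09 ± 0.04 per day (edgeR, unadjusted p = 0.043, adjusted p = 0.122), past the threshold in limma-voom alone among the alternatives (slope 0.13, adjusted p = 0.019). P21 exceeded P0 by 2.04 ± 1.01 log2 units (edgeR, adjusted p = 0.165; limma-voom, adjusted p = 0.0356).

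*Gabrb2* encodes the β2 subunit, a part of the commonest GABA-A receptors of the adult brain. The gene (ENSMUSG00000007653) lies on the plus strand of chromosome 11 from 42419757 to 42629028. Its samples had 57.5, 33.3 and 47.4 CPM at P0 and 8.09, 44.5 and 41.8 CPM at P4. They had 50.2, 29.2 and 11.8 CPM at P8, then 50.4, 75.8 and 65.5 CPM at P14, and 61.1, 45.7 and 53.3 CPM at P21. The P0 and P21 samples overlapped, with a log2 fold change of 0.21 ± 0.55 (edgeR, adjusted p = 0.83), whose sign turned negative without TMM scaling and without P0 replicate 2. The slope was 0.03 ± 0.02 per day (edgeR, adjusted p = 0.406).

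In the pair of gamma subunit genes, of which *Gabrg3* was sparse, samples of the same age lay far apart. *Gabrg1* encodes the γ1 subunit, known from glia and a few neuron types, on the minus strand of chromosome 5 from 70751047 to 70842617 (ENSMUSG00000001260). It was at 0, 0 and 6.89 CPM at P0 and 21.6, 20.7 and 2.74 CPM at P4. It was at 35.3, 6.49 and 2.89 CPM at P8, then 29.6, 51.3 and 36.7 CPM at P14, and 3, 3.60 and 9.93 CPM at P21. The P14 samples lay above all P0, P4 and P21 samples and overlapped those of P8. Its slope was 0.08 ± 0.09 per day (edgeR, adjusted p = 0.551), with a log2 fold change of -2.81 ± 1.36 from P14 to P21 (edgeR, adjusted p = 0.719). Without P0 replicate 3, the only P0 sample with a count of the gene, P21 against P0 was called (edgeR, adjusted p = 0.0108), against an adjusted p of 0.546 with it. Of the 8 Bergmann glia and astrocyte markers, 3 also had their highest mean at P14, 4 at P8 and 1 at P21. Their summed level was 6233 ± 218 CPM at P14, between 9102 ± 820 at P8 and 3651 ± 702 at P21. In this sum, *Fabp7* alone had means of 4662, 1107 and 186 CPM at P8, P14 and P21. *Slc1a3* had means of 2388, 3522 and 2511 CPM at these ages. The part of these markers in the *Gabrg1* values was not tested.

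*Gabrg3* encodes the γ3 subunit, a minor form in most brain regions. The gene (ENSMUSG00000055026) lies on the minus strand of chromosome 7 from 56716465 to 57387188 and had the fewest counts of the 7. It was at 0, 0.198 and 0.405 CPM at P0 and 2.45, 0 and 1.71 CPM at P4. It was at 2.42, 5.53 and 0.723 CPM at P8, then 0, 10.5 and 1.73 CPM at P14, and 0, 0 and 0.641 CPM at P21. P14 replicate 2 held 55 of the 64 P14 counts. That sample also had the highest summed granule neuron markers of all 15, 1062 CPM against 420 and 474 in the other P14 samples. At P8 these sums were 717, 443 and 650 CPM, lowest in replicate 2, which had the highest *Gabrg3* level of that age. The part of these markers in the *Gabrg3* values was not tested. The slope of *Gabrg3* was 0.06 ± 0.14 per day (edgeR, adjusted p = 0.799), and without P14 replicate 2 it was -0.07.

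No step between neighbouring time points was called for any of the 7 genes by edgeR, in which 1.97% of all genes tested were called for P4 against P0, 1.13% for P8 against P4, 2.67% for P14 against P8 and 0.329% for P21 against P14. The smallest adjusted p of the 7 was 0.248, 0.335, 0.431 and 0.719 in these steps (edgeR). At an unadjusted p under 0.05, edgeR gave *Gabra2* for P4 against P0, *Gabra2* and *Gabra5* for P8 against P4, and none for the later steps. Of all 14293 genes, 2123, 1688, 1910 and 1003 were under this p in the 4 steps in order. DESeq2 called *Gabra2* for P4 against P0 and no other step, and limma-voom called none. For P4 against P0, DESeq2 called 877 of 14229 genes and limma-voom 283 of 14293. The log2 difference of *Gabra5* between P8 and P4 was -4.24 ± 1.73 (edgeR, adjusted p = 0.335), that of *Gabra3* -2.78 ± 1.46 (adjusted p = 0.495) and that of *Gabra2* -2.59 ± 1.09 (adjusted p = 0.354). These 3 alpha subunit genes had negative differences in this interval, while the sum of the PC markers was 13192 ± 3686 CPM at P4 and 19202 ± 1293 at P8. The summed markers of molecular layer interneurons and Golgi cells were also lower at P8 (105 ± 15.6 CPM) than at P4 (203 ± 31.0), and those of glia were 7282 ± 1918 CPM at P4 and 9102 ± 820 at P8. Their part in these differences was not tested.

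**Figure D2:**
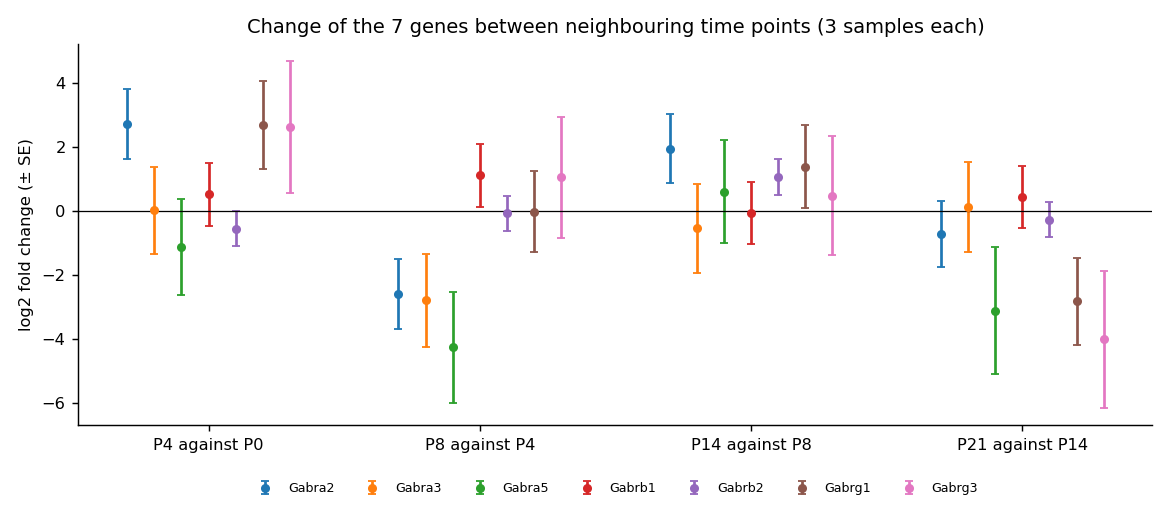
Log2 fold change (± SE, edgeR, time point as a factor) of the 7 genes in each of the 4 steps between neighbouring time points, with 3 samples per time point. The 3 alpha subunit genes lie between -4.24 and -2.59 for P8 against P4, and no point passes the threshold after adjustment.

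Compared per exon length (RPKM, counts scaled to exon length in kilobases and to the total counts on genes), the place of *Gabra5* among the 19 subunit genes went from 4 at P0 (9.12 ± 2.08 RPKM) to 13 at P21 (0.0329 RPKM, with a count in 1 of 3 samples). At P0 its range of 6.87 to 11 RPKM overlapped that of *Gabrb2*, next in order at 5.89 to 10 RPKM. *Gabra3* went from place 6 (4.38 RPKM) to place 11 (0.381 RPKM). *Gabrb2* stayed close in order, at place 5 (8.09 RPKM) and place 6 (7.34 RPKM), and its P21 range overlapped that of *Gabra4*, next below it. *Gabrb1* was at place 8 at both ages, with 0.681 and 2.19 RPKM, *Gabra2* at place 9, with 0.355 and 0.729 RPKM, and *Gabrg1* at place 10, with 0.327 and 0.616 RPKM. *Gabrg3* was at 0.0189 RPKM at P0 and 0.0159 RPKM at P21.

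The share of a subunit is its RPKM as a percentage of the summed RPKM of the 6 alpha, 3 beta or 3 gamma genes. At P0 *Gabra2*, *Gabra3* and *Gabra5* together made up 45.8% ± 7.45 of the alpha class and at P4 24.6% ± 8.81 (SD, n = 3). They made up 1.82% ± 1.69 at P8, then 0.822% ± 0.394 at P14 and 0.446% ± 0.257 at P21. The summed RPKM of the alpha class itself was 29.9 ± 13.5 at P0 and 269 ± 34.8 at P21, and a share can fall through a rise of another subunit as well as through its own fall.

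**Figure D3:**
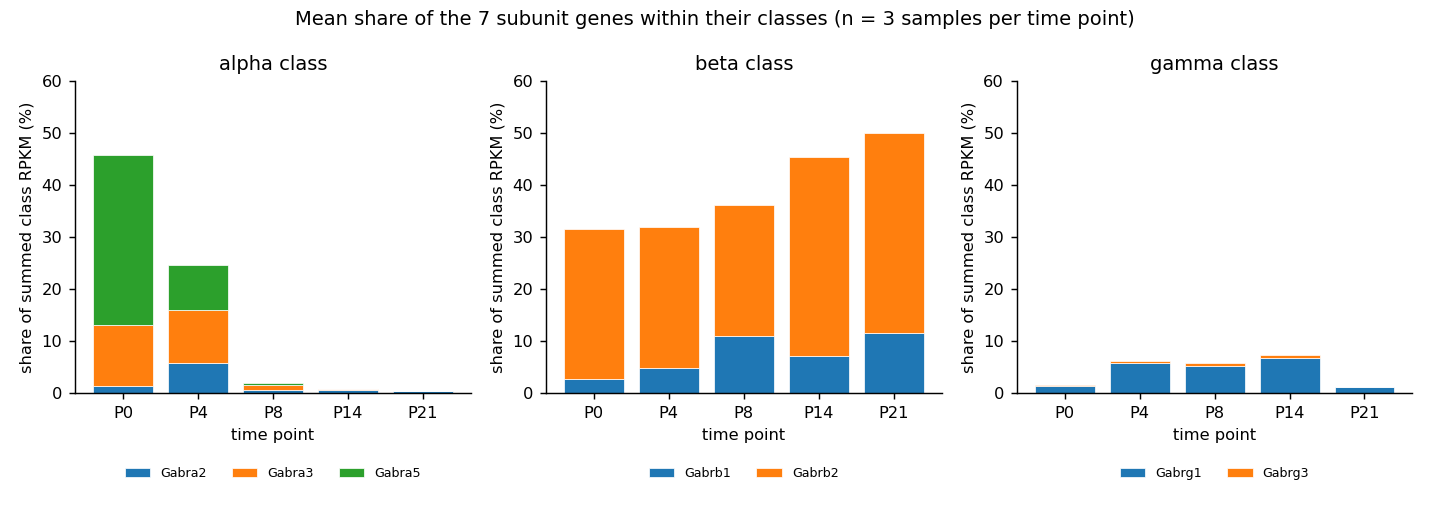
Mean share (%, of 3 samples) of each of the 7 genes (stacked colours) within the summed RPKM of the alpha, beta and gamma classes at each time point. The stack of the alpha class goes from 45.8% at P0 to 0.446% at P21, and that of the beta class from 31.6% to 50%.

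*Gabra5* alone held 24.2%, 41.4% and 32.4% of the alpha class in the P0 samples and 5.19%, 15.5% and 5.52% in the P4 samples, and at most 1.02% in any sample from P8 on. Its share fell with day over the 15 samples (Pearson r = -0.726, permutation p = 0.00175, adjusted p = 0.0105 over the 12 shares). Spearman rho was -0.834 (permutation p = 0.00032, adjusted p = 0.00192). Without P21 replicates 1 and 2, r was -0.749. They were left out as samples at the far end of the days, while P21 replicate 3, of the same age, was kept. All tests of shares were two-sided permutation tests with 100000 resamples.

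*Gabra3* held 22.2%, 10.1% and 3.54% in the P0 samples, 5.12%, 11.6% and 13.4% in the P4 samples and at most 1.63% from P8 on. Its share also fell with day (r = -0.689, permutation p = 0.00314, adjusted p = 0.0126; rho = -0.781, permutation p = 0.00101, adjusted p = 0.00303; r = -0.683 without these 2 samples). Among the 3 listed alpha genes alone, however, only the share of *Gabra5* fell (r = -0.746, permutation test, adjusted p = 0.0103 over the 7 shares). That of *Gabra3* gave r = -0.117 (adjusted p = 0.697) and that of *Gabra2* rose (r = 0.702, adjusted p = 0.0153). At P8 these shares rested on few counts. P8 replicate 1 held 16 counts of *Gabra3* and 0 of *Gabra2* and *Gabra5*, and P8 replicate 3 held 18 of *Gabra2* and 0 of the others. A share can also rise through the fall of another gene, and the level of *Gabra2* had a slope of 0.01 (edgeR, adjusted p = 0.951).

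The share of *Gabra2* in the whole alpha class was 1.25% ± 0.499 at P0, 5.79% ± 3.70 at P4 and 0.281% ± 0.119 at P21. Its Pearson test did not pass the threshold (r = -0.411, permutation p = 0.12, adjusted p = 0.171; r = -0.351 without these 2 samples), while its Spearman test did (rho = -0.709, permutation p = 0.00478, adjusted p = 0.0106). The level of *Gabra2* itself did not fall with day, as given above. A falling share was also found for *Gabra4*, an alpha gene outside the 7, with 10.5% ± 6.96 at P0 and 2.68% ± 1.16 at P21. Its relation to day passed the threshold (r = -0.657, permutation p = 0.00925, adjusted p = 0.0181), while the slope of its level was 0.06 (edgeR, adjusted p = 0.171).

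*Gabrb1* held 3.43%, 4.37% and 0% of the beta class in the P0 samples and 9.29%, 13.3% and 12.2% in the P21 samples. Its share rose with day (r = 0.676, permutation p = 0.00684, adjusted p = 0.0164; rho = 0.698, permutation p = 0.00528, adjusted p = 0.0106; r = 0.621 without these 2 samples). The relation was lost without P0 (r = 0.50, permutation test, adjusted p = 0.135). *Gabrb2* held 29.0% ± 14.4 at P0 and 38.4% ± 3.36 at P21 (r = 0.409, permutation p = 0.128, adjusted p = 0.171; rho = 0.316, permutation p = 0.253, adjusted p = 0.338; r = 0.334 without these 2 samples). Without P0 replicate 1, in which it held 45.6%, the relation passed the threshold (r = 0.591, adjusted p = 0.0373).

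*Gabrg1* held 1.42% ± 2.46 of the gamma class at P0 and 5.83% ± 4.41 at P4. It held 5.10% ± 6.10 at P8, then 6.78% ± 1.61 at P14 and 1.2% ± 1.07 at P21, and no linear relation to day passed the threshold (r = -0.0492, permutation p = 0.859, adjusted p = 0.859; rho = 0.0983, permutation p = 0.729, adjusted p = 0.828; r = 0.235 without these 2 samples). *Gabrg3* reached at most 1.18% of the class in any sample (r = -0.074, permutation p = 0.796, adjusted p = 0.859; rho = -0.0889, permutation p = 0.765, adjusted p = 0.828; r = 0.155 without these 2 samples).

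**Figure D4:**
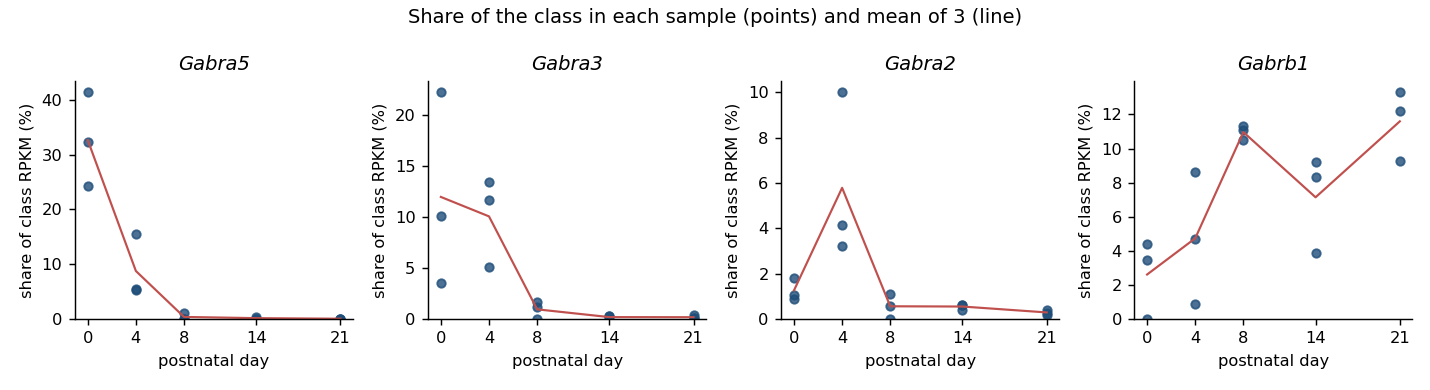
Share (%) of the summed class RPKM in each of the 15 samples (points) and mean of 3 (line) against postnatal day, for *Gabra5*, *Gabra3* and *Gabra2* of the alpha class and *Gabrb1* of the beta class. The *Gabra5* points lie between 24.2% and 41.4% at P0 and at or below 1.02% from P8 on.

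Of 9 other subunit genes reported, 3 passed the filter on low counts, of which 2 rose with day, 0 fell and 1 did not pass the test in edgeR, beside 12.1% of all genes rising. DESeq2 and limma-voom also called 2 rising and 0 falling, and at an unadjusted p under 0.05 none of these genes fell in any of the 3 tools. *Gabrd*, the extrasynaptic delta subunit, rose by 0.31 ± 0.09 per day (edgeR, adjusted p = 0.0117, and 0.0928 without P0). *Gabra6*, known as the alpha subunit of granule neurons and also on the granule neuron list used here, rose by 0.54 ± 0.09 (edgeR, adjusted p = 0.000238). *Gabra4* did not pass in edgeR (slope 0.06, adjusted p = 0.171). Of the 5 granule neuron markers, 3 also rose with day, *Gabra6* itself, *Cbln3* (slope 0.52, edgeR adjusted p = 8.44e-05) and *Slc17a7* (0.26, adjusted p = 0.00509), while *Fat2* (adjusted p = 0.107) and *Neurod1* (adjusted p = 0.818) did not pass. Their summed level, which includes *Gabra6*, was 233 ± 61.3 CPM at P0, 652 ± 356 at P14 and 409 ± 158 at P21. At P8 the sum was 603 ± 143 CPM, of which *Neurod1* made up 550 CPM. The other markers averaged 35.2 (*Fat2*), 8.65 (*Slc17a7*), 5.34 (*Cbln3*) and 4.25 CPM (*Gabra6*) at P8, and *Gabrd* averaged 21.2 CPM. In the P14 samples, *Gabra6* averaged 103 CPM, *Cbln3* 87.4, *Fat2* 75.2, *Slc17a7* 24.1 and *Neurod1* 363 CPM. Since the sum holds *Gabra6*, it is not a separate measure for that gene. The part of the other markers in the *Gabrd* and *Gabra6* values was not tested.

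**Figure D5:**
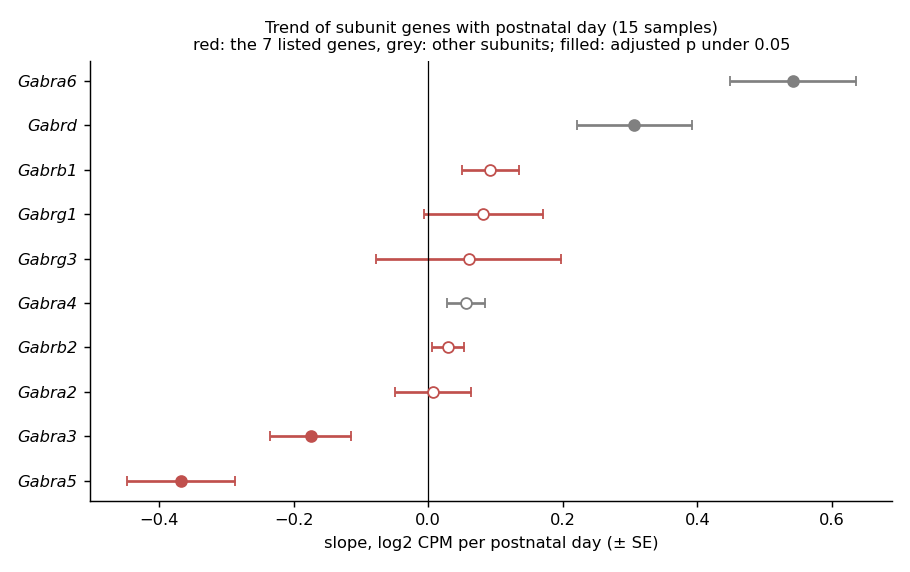
Slope of the 7 genes and of 3 other subunit genes (log2 CPM per postnatal day, ± SE, edgeR, 15 samples), with the 7 genes in red, other subunits in grey and filled points for an adjusted p under 0.05. *Gabra5* (-0.37) and *Gabra3* (-0.17) are the filled points below 0, and *Gabra6* and *Gabrd* those above it.

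Most of these genes sit in clusters. On chromosome 7, *Gabra5* lies beside *Gabrg3*, whose slope was 0.06 ± 0.14 (edgeR, not past the threshold) against -0.37 ± 0.08 for *Gabra5*, and the difference between the pair was not tested. On chromosome 5, *Gabrg1*, *Gabra2*, *Gabra4* and *Gabrb1* follow each other, and none of the 4 passed in edgeR (adjusted p between 0.122 and 0.951; at an unadjusted p under 0.05, *Gabrb1* alone). These values are for the trend with day, in which DESeq2 called none of them and limma-voom called *Gabrb1*. In the test of any difference between time points, DESeq2 called *Gabra2* (adjusted p = 0.0238) and limma-voom called *Gabrg1* (adjusted p = 0.041). *Gabrb1* and *Gabra4* share 46 exonic bases, 0.332% of the *Gabrb1* exon length. On chromosome 11, *Gabrb2* lies beside *Gabra6*, which rose.

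Genes that hold GABA-A receptors at the synapse or bring them there were taken as a list, of which 27 are reported and 26 passed the filter. In edgeR, 9 of these rose with day, 2 fell and 15 did not pass, beside 12.1% rising and 14.1% falling of all genes tested, with a median slope of 0.03 against -0.01 over all genes. Gephyrin (*Gphn*), the scaffold of inhibitory synapses, had a slope of 0.05 ± 0.02 (edgeR, adjusted p = 0.0372, and 0.428 without P0). *Nlgn2*, the neuroligin of inhibitory synapses (0.07, adjusted p = 1.39e-05), *Insyn1* (0.23, adjusted p = 0.000155) and *Dmd*, which encodes dystrophin (0.08, adjusted p = 0.00359), also rose in edgeR. So did the trafficking genes *Gabarapl1* (0.08, adjusted p = 1.45e-06), *Gabarapl2* (0.10, adjusted p = 8.63e-07), *Nsf* (0.09, adjusted p = 9.59e-05), *Clptm1* (0.06, adjusted p = 0.00959) and *Ubqln1* (0.04, adjusted p = 0.0297). *Gphn* and *Ubqln1* lost their calls without single samples (8 and 5 of the 15). Without P0, 6 of the list rose, beside 1383 of all 14293 genes in that fit. There *Clptm1* (edgeR, adjusted p = 0.159) and *Ubqln1* (adjusted p = 0.112) no longer passed either. *Dmd* was lost with log2(day + 1) (edgeR, adjusted p = 0.0619).

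The 2 that fell in edgeR were *Shisa7*, which encodes an auxiliary protein of GABA-A receptors (slope -0.20 ± 0.04, adjusted p = 0.00123), and *Insyn2a*, an inhibitory synapse component (-0.18 ± 0.05, adjusted p = 0.0092, and 0.142 without P0 and 0.238 in limma-voom). Where TMM scaling was left out, 6 of the list rose and 4 fell, beside 1230 rising and 2874 falling of all 14293 genes in that fit. *Gphn*, *Clptm1* and *Ubqln1* did not pass there (edgeR, adjusted p = 0.164, 0.0618 and 0.192).

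The genes most like each of the 7 in course were found by the Pearson correlation of log2(CPM + 0.5) over the 15 samples, among 9310 named protein-coding genes with a mean of at least 10 CPM. The points share library depth and age, and the values are a description. Most like *Gabra5* were *Fgf15* (r = 0.922), *Kidins220* (0.906) and *Sin3b* (0.901), and most like *Gabra3* were *Zfp618* (0.888), *Nrg1* (0.87) and *Wrb* (0.846). For *Gabra2* they were *Ccndbp1* (0.785), *Prpf6* (0.781) and *Kitl* (0.777). For *Gabrb1* they were *Ppcs* (0.949), *Rufy1* (0.924) and *Chst2* (0.92), and for *Gabrb2* *Mid2* (0.896), *Rgs2* (0.882) and *Sos2* (0.872). For *Gabrg1* they were *Tril* (0.852), *Aldh7a1* (0.843) and *Celf4* (0.834). For *Gabrg3* they were *Neurod1* (0.785), a transcription factor on the granule neuron list, *Cntn2* (0.775) and *Ptprd* (0.765).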

How the data were processed

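Each sample has 1 deposited table of raw, whole-number counts by Ensembl gene identifier, with no normalization applied. The authors prepared libraries with a SMARTer Ultra Low kit, trimmed the reads (cutadapt 1.2.1), aligned them to GRCm38/mm10 with GSNAP (version 2012-07-20), retained uniquely mapping reads and counted those lying fully within a gene with HTSeq 0.5.3p9 in intersection-strict mode; the annotation release and strand setting are not given in the sources used here. Reads shared by overlapping or near-identical genes are therefore undercounted. HTSeq's pooled tallies of reads assigned to no gene (18.2% to 31.0% of a sample's total) were left out of library sizes and tests.

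Time points and replicate numbers were taken from the labels. GENCODE M21 gave symbols, positions and exon-union lengths and names 36639 of the 38561 identifiers. CPM used TMM library sizes, and RPKM used exon length and total counts on genes. Trends and contrasts were tested with edgeR 4.0.16 (quasi-likelihood F tests, filterByExpr by time point, Benjamini-Hochberg over 14293 genes, threshold 0.05) in R 4.3.3, all 15 samples sharing one estimate of spread (biological coefficient of variation 0.757), with no block. Standard errors were derived from the log2 fold change and its F statistic. Count ratios carry exact conditional binomial intervals. Shares were tested over samples with Python 3.11.15, numpy 2.4.6 and scipy 1.17.1; pandas 2.3.3 and matplotlib 3.10.9 were also used. The fits and share tests were tested on simulated data. Alternatives covered DESeq2 1.42.0, limma 3.58.1 (voom), RLE size factors, no TMM, no filter, log2(day + 1), a replicate block, leaving out P0 or each sample in turn, shares of counts, and shares among the 7 genes only. Within time points, replicates differed by a chi-square per gene of 18.4 to 56.5, where sampling noise gives about 1, so all were kept as separate samples.

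The 7 genes and the lists of subunits, partners and cell type markers were chosen with earlier results of these data known. Named genes are the 7, the other subunits, the partner genes past the threshold and *Gphn*, and for each of the 7 the 3 genes most alike in course. *Cbln3*, *Slc17a7*, *Fat2* and *Neurod1* are the rest of the granule neuron list. *Fabp7* and *Slc1a3* are from the Bergmann glia and astrocyte list. A few genes of the subunit and partner lists are not reported here. *Insyn2a* and *Insyn2b* were matched through their older names. Promoter sequences are from RefSeq (GRCm38.p6).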

Additional observations from a re-analysis of the deposited data

How the results depend on the processing

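The slope of *Gabra5* kept its sign and its call under each of the 8 alternative fits and in the 15 fits without 1 sample (slope -0.48 to -0.35). Of the 56 slopes of the 7 genes in the 8 alternatives, 45 kept direction and side of the threshold, and of the 105 without 1 sample, 94 did. The *Gabra3* slope missed the threshold with limma-voom (-0.191), log2(day + 1) (-0.88 per unit), the replicate block (-0.174, adjusted p = 0.0676) and without P0 (-0.176), and ranged from -0.229 to -0.15 without 1 sample. *Gabrb1* passed with limma-voom (0.128). Slopes near 0 changed sign: *Gabra2* without TMM (-0.0103), without P0 (-0.0485) and without 1 sample (-0.0112 to 0.0443); *Gabrg1* without P0 (-0.025); *Gabrg3* with limma-voom (-0.00197), the replicate block (-0.00955), without P0 (-0.0881) and without 1 sample (-0.0721 to 0.116). For P21 against P0, *Gabrb2* turned negative without TMM (-0.143) and ranged from -0.00408 to 0.369 without 1 sample, and *Gabrg3* turned negative with limma-voom (-0.0216) and without TMM (-0.102) and ranged from -3.21 to 1.05. Over all genes together, deviations from the time point means were no more alike between samples of the same replicate number (mean r = -0.00329) than of different numbers (0.00165). Centring within each time point ties these values to each other, so they are not independent. A mean over all genes cannot show whether a batch shared by number moved some genes, and this was not tested. With the block, 1723 genes rose and 1911 fell against 1729 and 2021 without it. DESeq2 called 4224 genes in any pattern (2753 in edgeR), 877 for P4 against P0 (281), 544 for P8 against P4 (162), 911 for P14 against P8 (382) and 195 for P21 against P14 (47), and limma-voom 310 and 600 for the middle 2 steps. Without 1 sample these steps gave 76 to 206, 165 to 461 and 23 to 70 genes. Genes lower at P21 than P0 numbered 2292 without TMM (1522 with it), and partner genes falling with day 4 (2). With DESeq2, limma-voom and without P0, 1 partner gene fell, beside 2442, 1807 and 1654 of all genes. *Shisa7* had no adjusted p in DESeq2 and so could not be counted there. The rise to fall split moved to 1230 and 2874 without TMM, 1855 and 1476 with log2(day + 1), and 2238 and 1807 with limma-voom; the median log2 fold change of all genes between P21 and P0 was -0.461 without TMM and -0.105 with it. Among the 7 genes alone, shares gave r = 0.702 for *Gabra2*, -0.117 for *Gabra3*, 0.174 for *Gabrb1*, -0.174 for *Gabrb2* and 0.487 for *Gabrg1* (14 samples with a value), the pair in each of the latter classes mirroring each other by construction. Without P0, the r of *Gabra2* was -0.607 (past the threshold) and that of *Gabrb1* 0.50 (not past it). Without 1 sample, r ranged from 0.345 to 0.591 for *Gabrb2*, -0.163 to 0.064 for *Gabrg1* and -0.21 to 0.0161 for *Gabrg3*. Causes of these changes were not tested. With 3 samples per age, *Gabrg3* (136 counts in all) could move by several log2 units without passing the test. So could *Gabrg1* (1231 counts), whose samples of the same age lay far apart.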

Other observations

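The 6 subunit genes that did not pass the filter were *Gabre*, *Gabrp*, *Gabrq* and *Gabrr1* to *Gabrr3*, which encode the epsilon, pi, theta and rho subunits. *Gabrp*, *Gabrr1* and *Gabrr3* had no count in any of the 15 samples. *Gabrq*, the X-linked neighbour of *Gabra3*, was at 10.3 CPM in P8 replicate 1 and 4.66 CPM in P0 replicate 3, at 0.245 CPM or less elsewhere. *Gabre* had 2.58 CPM in P14 replicate 1 and *Gabrr2* 0.668 CPM in P21 replicate 1, and each was near or at 0 in the other samples.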
